A study of Mus musculus with 32 samples.

Results

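Serine, glycine and one-carbon metabolism was followed in antigen-activated helper T cells through 10 enzymes, out of 23339 genes measured on either array platform. They were chosen by name, with earlier results of these data known, and matched by gene symbol on both platforms. Their counts set beside the share of all genes are therefore descriptions. Phgdh, Psat1 and Psph carry out the successive steps of serine synthesis. Shmt1 and Mthfd1 belong to the cytosolic branch of the folate pathway, and Shmt2, Mthfd2, Mthfd1l and Aldh1l2 to its mitochondrial branch. Gcat takes part in threonine breakdown to glycine in mitochondria. On the 48 h arrays 9 of the 10 were measured among 22180 genes, since Gcat lay only on probe sets that also name Galr3. On the 72 h arrays 9 of the 10 were measured among 17097 genes, since Mthfd2 lay only on probe sets that also name Gsn. This left 8 enzymes measured at both times.

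The pathway converts the glycolytic intermediate 3-phosphoglycerate to serine, and serine hydroxymethyltransferase then moves a carbon from serine to tetrahydrofolate, releasing glycine. The carbon units feed purine and thymidylate synthesis and the methionine cycle. Mitochondrial enzymes oxidize the carbon unit to formate, which leaves for the cytosol and is used there. Activated T cells are known to induce this pathway while they grow and divide, and several of its genes are known targets of the transcription factors ATF4 and Myc.

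CD4+ T cells came from the lymph nodes (axial and cervical) of Balb/c mice with the DO11.10 T cell receptor transgene, whose product recognizes a peptide of ovalbumin (OVA). They were cultured on peritoneal macrophages elicited with thioglycollate, in a medium based on RPMI-SILAC, and viable CD4+ singlets were sorted for RNA (100 ng per array). At 48 h, 3 arrays each held cells given OVA in full medium, OVA in full medium on macrophages that had received IL-4 plus IL-10 (each at 10 ng/mL) beforehand and were washed, and OVA in medium holding 1% of the normal arginine, leucine or lysine. Without OVA, cells in the low media had 2 arrays for arginine and 3 each for leucine and lysine, and no 48 h group without OVA in full medium was analysed here. At 72 h, 3 arrays each held cells in full medium without OVA, with OVA, and with OVA on pretreated macrophages. The labels do not say whether replicates came from different cultures or animals, so the p-values reflect only how far these samples spread, which may be technical.

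Values are log2 expression levels as deposited, and each difference is a log2 fold change with its SE, fitted with limma, with Benjamini-Hochberg adjustment over all genes of the platform and a call at an adjusted p below 0.05 (two-sided, n = 3 arrays per group unless given otherwise). The median over all probe sets of an array was 5.44 to 5.75 at 48 h and 3.87 to 4.04 at 72 h. The mean of 9 CD4 T cell identity markers was 9.83 to 10.78 on the 48 h arrays, 9.16 to 9.40 at 72 h without OVA and 10.09 to 10.74 at 72 h with OVA. At 72 h the arrays without OVA also carried 12 mesothelial and stromal markers at a mean of 10.28 to 10.81, against 4.30 to 4.75 with OVA. Fewer cells of a type and less RNA per cell cannot be told apart in such bulk samples.

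Promoter windows of 300 bases (250 before to 50 after the start of transcription) were taken from RefSeq on GRCm38.p6 for 9 of the 10 enzymes, Aldh1l2 having no entry in the table used. They are shown for Mthfd1 and Mthfd2, the cytosolic and mitochondrial dehydrogenases whose levels went opposite ways in the restricted cultures, and for Gcat, whose level changed most on pretreated macrophages. Capitals mark the E-box CACGTG, the element that Myc binds.
Mthfd1, chr12:76254982-76255281, plus strand: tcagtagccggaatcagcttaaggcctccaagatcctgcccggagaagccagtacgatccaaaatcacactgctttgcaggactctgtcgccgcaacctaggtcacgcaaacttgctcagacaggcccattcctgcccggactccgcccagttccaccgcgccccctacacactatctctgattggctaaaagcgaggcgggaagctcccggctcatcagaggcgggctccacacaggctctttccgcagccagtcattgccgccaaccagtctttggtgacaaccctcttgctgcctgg
Mthfd2, chr6:83317555-83317854, minus strand: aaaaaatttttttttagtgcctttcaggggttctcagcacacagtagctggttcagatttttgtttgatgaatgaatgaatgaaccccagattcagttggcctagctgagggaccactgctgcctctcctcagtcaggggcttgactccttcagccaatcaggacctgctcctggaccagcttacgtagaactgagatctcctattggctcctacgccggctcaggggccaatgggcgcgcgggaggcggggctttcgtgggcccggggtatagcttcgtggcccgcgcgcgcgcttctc
Gcat, chr15:79030624-79030923, plus strand: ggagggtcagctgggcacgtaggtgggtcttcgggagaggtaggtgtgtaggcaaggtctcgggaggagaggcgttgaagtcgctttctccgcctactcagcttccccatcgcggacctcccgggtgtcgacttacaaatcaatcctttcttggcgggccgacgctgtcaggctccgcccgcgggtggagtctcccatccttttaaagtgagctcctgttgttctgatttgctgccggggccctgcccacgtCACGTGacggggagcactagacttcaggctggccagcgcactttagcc
Both strands were searched for this E-box and for TGATGNAA, the core of the C/EBP-ATF response element that ATF4 binds. No window of the 9 genes held both. The E-box was found in 1 of the 9 genes, Gcat, 2 bases after the start of transcription, against 8.09% of the 27025 genes in the table (7.15% of its 32851 windows). The response element core was found in 0 of the 9, against 4.51% of genes (3.97% of windows). A match describes the letters only, and its absence says only that they are not in this window. The windows of Mthfd1 and Mthfd2 lie wholly inside the gene bounds that RefSeq lists, not at their outer ends, and Psat1 had 2 windows.

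Antigen raised nearly every enzyme at 72 h in full medium. Of the 9 measured, 8 rose and 1 fell, where 38.2% of all genes were called (20.7% higher and 17.4% lower). Their median difference was 2.18, against 0.02 over all genes.

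In serine synthesis, Psat1, the phosphoserine aminotransferase, stood at 7.89, 7.20 and 7.58 without OVA and at 10.47, 10.57 and 10.43 with it. All 3 arrays with OVA lay far above those without, a 7.64-fold rise (2.93 ± 0.17, adjusted p = 3.54e-07). Phgdh, the phosphoglycerate dehydrogenase that starts the route, went from 7.92, 7.50 and 7.50 to 9.75, 10.07 and 10.13 (2.34 ± 0.17, adjusted p = 1.37e-06). Both Phgdh probe sets carry a suffix for possible cross-hybridization, RefSeq lists a pseudogene of it, and the second probe set rose by 3.15. Psph, the phosphatase of the last step, rose 3.83-fold, with 7.38 to 7.69 without OVA and 9.25 to 9.72 with it (1.94 ± 0.17, adjusted p = 6.5e-06).

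Both cytosolic enzymes rose. Shmt1, cytosolic serine hydroxymethyltransferase, stood at 6.77, 6.22 and 7.08 without OVA and at 7.88, 8.86 and 8.08 with it (1.58 ± 0.31, adjusted p = 0.00157). Its 4 probe sets differed by 1.58 to 3.12, so its size depends on the probe set. Mthfd1, the cytosolic enzyme with dehydrogenase, cyclohydrolase and formyltetrahydrofolate synthetase activities, went from 8.05, 7.89 and 7.94 to 8.94, 9.45 and 9.25 (1.25 ± 0.16, adjusted p = 9.34e-05).

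Among the mitochondrial enzymes, Shmt2, mitochondrial serine hydroxymethyltransferase, stood at 7.02, 6.38 and 6.22 without OVA and at 8.72 on each of the 3 arrays with it (2.18 ± 0.22, adjusted p = 1.76e-05). Its other 2 probe sets differed by 1.68 and 0.27. Mthfd1l, which releases formate, rose 5.02-fold, with 7.18 to 7.49 without OVA and 9.53 to 9.87 with it (2.33 ± 0.16, adjusted p = 1.11e-06). Gcat, glycine C-acetyltransferase, rose 6.42-fold, from 5.77, 6.36 and 6.36 to 8.41, 9.20 and 8.93 (2.68 ± 0.27, adjusted p = 1.67e-05). A second Gcat probe set, at a mean level of 3.39 to 3.49 per group, differed by -0.02.

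Aldh1l2, the mitochondrial formyltetrahydrofolate dehydrogenase, was the single enzyme that fell, from 6.92, 6.43 and 6.41 without OVA to 5.09, 5.67 and 4.68 with it (-1.44 ± 0.30, adjusted p = 0.00273). All 12 mesothelial and stromal markers and 8 of 12 macrophage markers fell in the same comparison, and all 10 markers of dividing cells rose. Macrophage markers had a mean of 5.18 to 7.08 without OVA and 3.67 to 3.73 with it. The part of these other markers in the differences at 72 h was not tested. The array median over the genes tested, with 1 probe set a gene, was also 0.51 lower with OVA. Centring the arrays on it put the Aldh1l2 difference at -0.93 and that of Shmt2 at 2.69, with both calls kept.

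**Figure D1:**
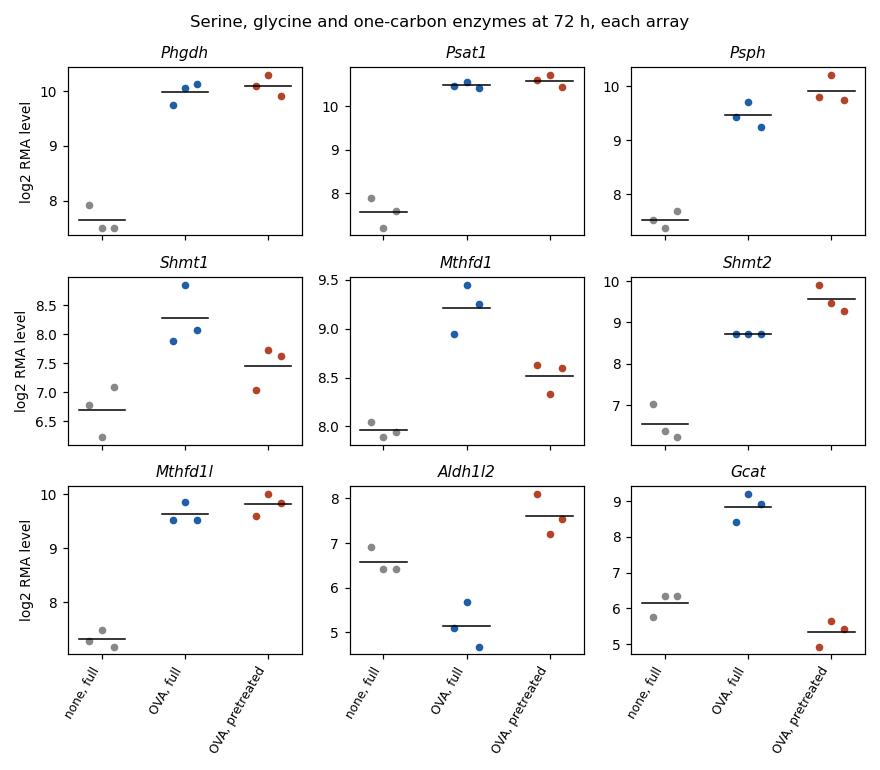
Levels of the 9 enzymes measured at 72 h, each point 1 array and each line the mean of 3 arrays, as log2 RMA level with an axis of its own for each enzyme. Gcat is high only with OVA on untreated macrophages, whereas Aldh1l2 is lowest there.

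Other genes of the pathway changed in both directions with antigen at 72 h. Of 10 folate cycle genes measured, 5 rose and 3 fell, with Slc25a32, the mitochondrial folate carrier, at 1.83 ± 0.25 (adjusted p = 0.000135) and Aldh1l1, the cytosolic counterpart of Aldh1l2, at -1.84 ± 0.23 (adjusted p = 7.66e-05). Of 8 genes of the methionine cycle and transsulfuration, 4 rose and 1 fell. Cth, cystathionine gamma-lyase, rose by 1.75 ± 0.27 (adjusted p = 0.000354) and Mtr, methionine synthase, by 1.67 ± 0.20 (adjusted p = 5.21e-05). Of 8 genes of glycine cleavage and of serine and glycine breakdown and transport, 2 rose and 2 fell, among them the amino acid transporter Slc38a2 at -1.24 ± 0.11 (adjusted p = 5.55e-06).

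At 48 h antigen was compared with no antigen within each low medium. In low arginine all 9 measured enzymes rose, against 29.4% of genes called (17.2% higher and 12.2% lower), with a median of 2.10 against -0.12 over all genes. In low leucine 8 of 9 rose (41.3% of genes called, 21.8% higher and 19.5% lower, median 1.98 against -0.13), and in low lysine 8 of 9 (31.0% called, 18.4% higher and 12.6% lower, median 2.07 against -0.09). Phgdh was the enzyme not called in the last pair of media. The array medians over the genes tested were lower with OVA by 0.139 to 0.185.

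Psat1 showed one of the widest gaps. Without OVA it stood at 6.06 and 6.12 in low arginine, 6.38, 6.19 and 5.62 in low leucine and 6.03, 6.10 and 6.03 in low lysine. With OVA it stood at 9.31, 9.49 and 9.41, at 9.43, 9.55 and 9.57, and at 9.39, 9.26 and 9.62 in the same media. No array with OVA came near those without, and the differences were 3.31 ± 0.16 (n = 3 and 2), 3.45 ± 0.15 and 3.37 ± 0.15 (limma adjusted p = 9.53e-13, 6.06e-14 and 8.07e-14). Psph rose by 1.88 to 2.21 in the 3 media, with 6.21 to 6.69 without OVA and 8.18 to 8.65 with it.

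Phgdh, in contrast, differed little on this platform. It stood at 7.88 and 7.21 without OVA and 8.05, 8.12 and 8.19 with it in low arginine (0.57 ± 0.21, adjusted p = 0.0471, limma, n = 3 and 2). In low leucine it went from 7.82, 7.79 and 7.53 to 7.83, 7.76 and 7.92 (0.12 ± 0.19, adjusted p = 0.62), and in low lysine from 7.08, 8.00 and 7.65 to 7.84, 7.83 and 7.74 (0.23 ± 0.19, adjusted p = 0.397). Groups overlapped in the last 2 media. The low arginine call was lost under 6 of 13 alternatives. These were leaving out replicate 2 lacking OVA (difference 0.24) or any of the 3 arrays with OVA (0.54 to 0.61), quantile normalization (0.10) and a replicate block (0.57). On the other platform at 72 h in full medium Phgdh had risen 5.07-fold, and whether the platforms differ in what they measure for it was not tested.

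Shmt2 rose about as much as Psat1. It stood at 7.05 to 7.77 over the 8 arrays without OVA and at 10.43 to 11.21 over the 9 with it in the low media, with differences of 3.39 ± 0.22 in low arginine, 3.19 ± 0.20 in low leucine and 3.23 ± 0.20 in low lysine. Mthfd2, the mitochondrial dehydrogenase and cyclohydrolase that is low in most resting adult cells, stood at 5.93 to 6.59 without OVA and 8.75 to 9.19 with it (2.86 ± 0.15, 2.67 ± 0.14 and 2.63 ± 0.14). Mthfd1l rose by 1.87 to 2.13. Of the cytosolic enzymes, Mthfd1 rose by 1.61 ± 0.17, 1.98 ± 0.15 and 2.07 ± 0.15 and Shmt1 by 1.00 ± 0.22, 1.40 ± 0.19 and 1.07 ± 0.19.

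Aldh1l2 was the dimmest enzyme at 48 h, between 4.35 and 5.79 near or below the array medians. It rose by 0.74 ± 0.20 in low arginine, 0.95 ± 0.18 in low leucine and 0.50 ± 0.18 in low lysine (limma adjusted p = 0.00748, 0.000178 and 0.0369), whereas it fell with antigen at 72 h in full medium. Platform, time and medium all differ between those comparisons, and their difference was not tested. The low arginine call was lost without replicate 1 lacking OVA (0.61). In low lysine it was lost without replicate 1 or 3 with OVA (0.38 and 0.52), without replicate 1 or 2 lacking it (0.43 and 0.44), and with the compared groups alone in the fit (0.50).

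No enzyme's response to antigen was called as different between the 3 low media. The limma F test gave 0 of 9 (0 at an unadjusted p below 0.05, adjusted p 0.701 to 0.971), where 33 genes, 0.149% of all, were called. Levels without OVA also gave 0 of 9 between the low media (0 at an unadjusted p below 0.05, adjusted p 0.916 to 0.999), against 0.00902% of genes. In the 3 low media, 5 to 8 of 12 macrophage markers and 2 to 8 of 12 mesothelial and stromal markers fell with antigen and 9 or 10 of 10 dividing-cell markers rose, and their part in these rises was not tested. Macrophage markers had a mean of 6.66 to 6.96 without OVA and 5.83 to 6.42 with it.

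**Figure D2:**
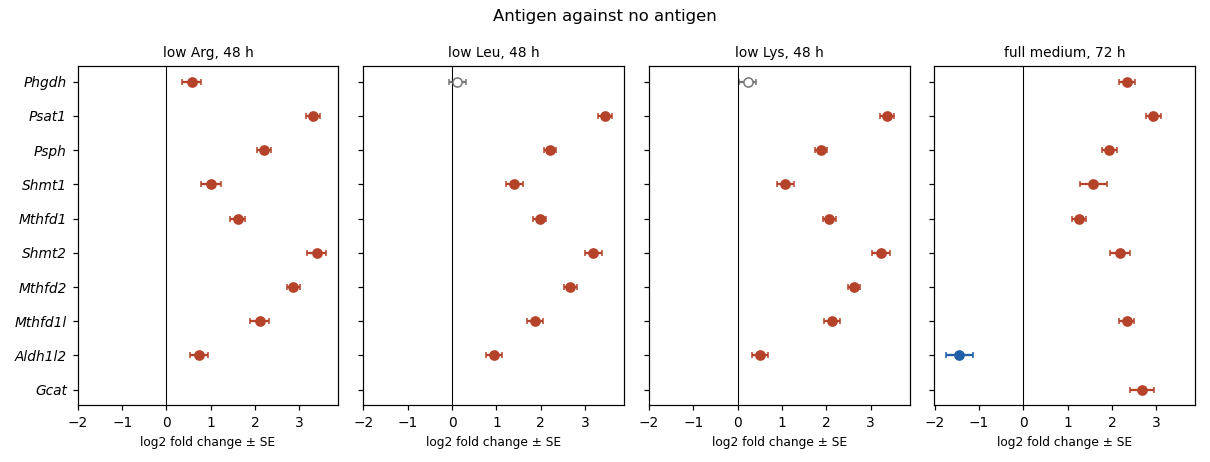
Log2 fold change with antigen against no antigen, one panel per low medium at 48 h and one for full medium at 72 h, with bars of 1 SE. Filled points passed an adjusted p below 0.05 (red higher, blue lower), open points did not, and a row with no point was not measured. Psat1, Shmt2 and Mthfd2 lie furthest to the right at 48 h, and Aldh1l2 at 72 h is the one point below 0 that passed.

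Among other pathway genes, both formyl folate users of purine synthesis, Gart and Atic, rose with antigen in every low medium, by 1.03 to 1.60. Of 11 folate cycle genes 1, 2 and 3 rose and 1, 0 and 0 fell in the arginine, leucine and lysine media, with Tyms, thymidylate synthase, at 2.60 ± 0.29, 2.37 ± 0.26 and 1.89 ± 0.26. Of 12 glycine and serine genes 6 rose in each medium, led by the transporter Slc1a5 (2.88 ± 0.13, 2.63 ± 0.12 and 2.94 ± 0.12) and by Sfxn1, a mitochondrial serine carrier (2.50 ± 0.16, 2.53 ± 0.14 and 2.55 ± 0.14). Of these 12, 0, 1 and 2 fell. Of 8 methionine and transsulfuration genes 3, 4 and 3 rose, and 0, 3 and 1 fell. Cth rose most, by 4.15 ± 0.32, 3.31 ± 0.28 and 3.33 ± 0.28.

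When an amino acid was restricted during antigen stimulation, Mthfd2 and Aldh1l2 rose and Mthfd1 fell in each of the 3 low media, and Shmt1 fell in low arginine and low lysine. The low leucine and low lysine calls were less firm, as given after the values. Against OVA in full medium, low arginine changed 4 of 9 enzymes, 2 up and 2 down, where 4.67% of all genes were called (1.51% higher and 3.17% lower). Low leucine changed 3 of 9, 2 up and 1 down (2.72% of genes called, 1.15% higher and 1.56% lower). Low lysine changed 4 of 9, 2 up and 2 down (8.73% called, 2.49% higher and 6.24% lower). The 3 comparisons share the 3 full-medium arrays, whose submitter ID numbers lie in other consecutive blocks than those of all low-medium arrays. The labels do not say whether these blocks were batches, and block and medium cannot be told apart.

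Mthfd1 stood at 8.81, 8.67 and 8.78 with OVA in full medium. It stood at 7.98, 7.83 and 8.20 in low arginine, 8.13, 8.22 and 8.10 in low leucine and 8.07, 7.99 and 8.63 in low lysine. Every restricted array lay below every full-medium array, with differences of -0.75 ± 0.15, -0.60 ± 0.15 and -0.52 ± 0.15 (limma adjusted p = 0.004, 0.0312 and 0.0343). Shmt1 stood at 8.49, 8.23 and 8.38 in full medium and at 7.41, 7.42 and 7.58 in low arginine, 7.94, 7.77 and 7.79 in low leucine, and 7.18, 7.34 and 8.04 in low lysine. Its arrays did not overlap with full medium either, and it fell by 0.89 ± 0.19 in low arginine (limma adjusted p = 0.00652) and by 0.84 ± 0.19 in low lysine (limma adjusted p = 0.00781), while the difference in low leucine was -0.53 ± 0.19 (limma adjusted p = 0.189).

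Mthfd2 stood at 8.30, 8.48 and 8.47 in full medium. It stood at 9.19, 9.15 and 9.17 in low arginine, 9.01, 9.06 and 8.95 in low leucine and 8.85, 8.75 and 9.02 in low lysine. It was thus higher on every restricted array, by 0.75 ± 0.14, 0.59 ± 0.14 and 0.46 ± 0.14 (limma adjusted p = 0.00156, 0.0167 and 0.0404). Aldh1l2 went from 4.60, 4.35 and 4.73 to 5.19, 5.41 and 5.76 in low arginine, to 5.79, 5.44 and 5.39 in low leucine and to 5.44, 4.999 and 5.17 in low lysine. It rose by 0.89 ± 0.18, 0.98 ± 0.18 and 0.64 ± 0.18 (limma adjusted p = 0.00373, 0.00207 and 0.0277), again with no overlap.

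The remaining enzymes did not pass the test in any of these 3 comparisons. Psat1 stood at 8.97, 9.02 and 8.99 in full medium, below each of the 9 restricted arrays, with differences of 0.41 to 0.52 ± 0.15 (limma adjusted p = 0.129, 0.0563 and 0.0717). Shmt2 stood at 10.44, 10.42 and 10.39 in full medium and at 10.99, 11.06 and 11.21 in low arginine (0.67 ± 0.20, limma adjusted p = 0.0576), where it passed under 4 of 14 alternatives. Psat1 passed under 1 of 14 in low arginine, 3 of 14 in low leucine and 2 of 14 in low lysine. In low leucine and low lysine the Shmt2 differences were 0.18 ± 0.20 and 0.31 ± 0.20. Psph differed by 0.26 to 0.45 and Phgdh by 0.14 to 0.46, and Mthfd1l by at most 0.06.

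The calls differed in how far they rested on single arrays. In low arginine all 4 passed under every alternative run. The alternative that left out dim genes removed Aldh1l2 at 48 h, so its calls were not tried there. In low leucine Aldh1l2 held under the 13 alternatives run for it, but Mthfd1 was lost when any of the 6 arrays was left out (-0.64 to -0.57). Mthfd2 was lost in low leucine without full-medium replicate 1 or 3, or low-leucine replicate 1 or 2 (0.54 to 0.62), which left 1 call. In low lysine 0 calls were left without low-lysine replicate 1, 1 without full-medium replicate 1 or 2, and 2 without full-medium replicate 3 or low-lysine replicate 2. Without low-lysine replicate 1 the Shmt1, Mthfd1, Mthfd2 and Aldh1l2 differences were -0.67, -0.44, 0.47 and 0.52. The scaling mattered as well. With quantile normalization 3 of the 4 low lysine calls were lost, Shmt1 (-0.58), Mthfd1 (-0.29) and Aldh1l2 (0.50), while Psat1 and Psph passed there. Centred arrays ended the call of Mthfd1 in low leucine (-0.60, adjusted p = 0.0556) and of Mthfd2 in low lysine (0.39, adjusted p = 0.105). With only the compared groups in the fit, none of the 4 low lysine calls was left.

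Dividing-cell markers had lower means in the restricted cultures too. Their mean over 10 genes was 9.43 to 9.50 with OVA in full medium, 9.09 to 9.31 in low arginine, 8.77 to 9.06 in low leucine and 6.20, 7.47 and 8.60 in low lysine. Of the 10, none passed limma in low arginine (differences -0.86 to 0.45) or low leucine (-0.97 to -0.03), and all 10 fell in low lysine. Their median differences were -0.36, -0.59 and -2.03. In low lysine the array with the highest value of these markers, replicate 3, also had the highest level of every measured enzyme but Phgdh and Aldh1l2. This held for Mthfd2, which had risen in low lysine, as well as for Mthfd1 and Shmt1, which had fallen. In the same comparison 3 of 5 B cell markers rose. The part of these markers was not tested.

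Between the low media with antigen no enzyme was called by limma. Low arginine against low leucine gave 0 of 9 (1 at an unadjusted p below 0.05, Shmt2; 0.712% of genes called, 0.234% higher and 0.478% lower), with differences from -0.36 for Shmt1 to 0.49 for Shmt2. Low arginine against low lysine gave 0 of 9 (1 at an unadjusted p below 0.05, Mthfd2; 3.22% of genes called, 2.65% higher and 0.577% lower), from -0.23 to 0.36. Low leucine against low lysine gave 0 of 9 (0 at an unadjusted p below 0.05; 1.88% of genes called, 1.59% higher and 0.289% lower), from -0.13 to 0.34. With only the compared groups in the fit, Shmt2 passed between low arginine and low leucine.

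**Figure D3:**
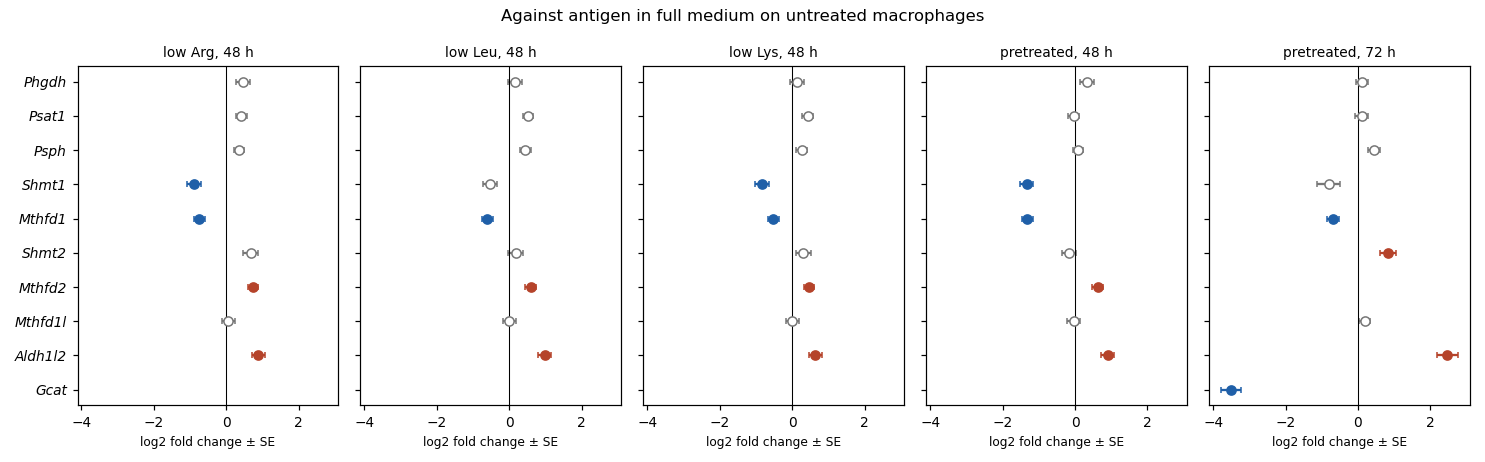
Log2 fold change at 48 h of each restricted or pretreated culture against OVA in full medium, and of pretreated macrophages at 72 h, with bars of 1 SE. Filled points passed an adjusted p below 0.05 and open points did not. Shmt1 and Mthfd1 lie left of 0, and Mthfd2 and Aldh1l2 right of 0, in every panel at 48 h.

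Other pathway genes showed a like mix in the restricted cultures. Cth rose by 2.39 ± 0.28 in low arginine, 1.88 ± 0.28 in low leucine and 1.85 ± 0.28 in low lysine (limma adjusted p = 1.26e-05, 0.000267 and 0.000354), the 1 gene of 8 of its list that rose in each, while 0, 0 and 2 of the list fell. Of 12 glycine and serine genes 4, 2 and 3 rose and 0, 0 and 1 fell, with Slc1a4, a neutral amino acid transporter, at 1.06 ± 0.19 in low arginine and Slc38a2 at 0.90 ± 0.14. Of 11 folate cycle genes none was called in low arginine or low leucine (limma), and Tyms fell by 0.92 ± 0.26 in low lysine. Gart and Atic, which use the formyl group in purine synthesis, fell by 0.96 ± 0.20 and 0.52 ± 0.11 in low arginine. Among the reference genes, Asns, asparagine synthetase, rose by 0.98 ± 0.22, 0.90 ± 0.22 and 0.89 ± 0.22 and Trib3, which also rose in low lysine, by 1.72 ± 0.22 and 1.63 ± 0.22 in low arginine and low leucine. These were the 2 called of 4 reference genes in each medium. Atf4 differed by 0.34, 0.38 and 0.22 and Myc by -0.25, -0.17 and -0.03, and neither passed.

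On pretreated macrophages at 48 h, in medium with all amino acids, Shmt1 and Mthfd1 fell and Mthfd2 and Aldh1l2 rose. Of 9 enzymes 2 rose and 2 fell against OVA alone, where 8.64% of genes were called (2.71% higher and 5.93% lower). Shmt1 stood at 6.54, 7.31 and 7.22, against 8.23 to 8.49 with OVA alone, a 2.54-fold fall (-1.34 ± 0.19, adjusted p = 9.76e-05). Mthfd1 stood at 7.34, 7.52 and 7.46, against 8.67 to 8.81, a 2.49-fold fall (-1.32 ± 0.15, adjusted p = 7.86e-06). Neither pair of groups overlapped.

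Mthfd2 stood at 9.13, 8.86 and 9.13 on pretreated macrophages, above all 3 arrays with OVA alone (0.62 ± 0.14, adjusted p = 0.00527), and Aldh1l2 at 5.52, 5.65 and 5.20 (0.90 ± 0.18, adjusted p = 0.00235). All 4 calls held when any array was left out. The other 5 differed by -0.17 to 0.32 and did not pass. Shmt2 was uneven there, at 9.57 in replicate 1 against 10.55 and 10.62. All 10 dividing-cell markers fell in this comparison, with means of 6.65, 6.95 and 8.41, and 4 of 6 markers of alternatively activated macrophages rose, their mean being 4.89 to 5.10 with OVA alone and 6.61 to 7.18 on pretreated macrophages. Their part was not tested.

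The calls at 72 h covered partly other enzymes than those at 48 h. Mthfd2 was not measured at 72 h, nor Gcat at 48 h, while Mthfd1 fell and Aldh1l2 rose at both times. Pretreated macrophages changed 4 of 9 enzymes against OVA alone, 2 up and 2 down, where 9.69% of genes were called (3.78% higher and 5.91% lower). Gcat stood at 4.93, 5.66 and 5.41, against 8.41, 9.20 and 8.93 with OVA alone and 5.77, 6.36 and 6.36 without OVA. It was thus 11.4-fold lower than with OVA alone (-3.51 ± 0.27, adjusted p = 7.96e-05), the largest difference of any enzyme in the 13 comparisons, and each pretreated array lay below each array without OVA. The second, dimmer Gcat probe set differed by 0.10, and with the mean of both probe sets the difference was -1.71, still called.

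Aldh1l2 moved the other way. It stood at 8.10, 7.21 and 7.53 on pretreated macrophages, above every array of OVA alone (5.09, 5.67 and 4.68), a 5.53-fold rise (2.47 ± 0.30, adjusted p = 0.00116). Replicate 1, its highest array, also had the highest mean of mesothelial and stromal markers, 6.63 against 4.78 and 4.95, and without it the difference was 2.22 and still called. Of those 12 markers 2 rose and 1 fell.

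Shmt2 rose and Mthfd1 fell. Shmt2 went from 8.72 on all 3 arrays to 9.92, 9.47 and 9.29 (0.84 ± 0.22, adjusted p = 0.0394), and Mthfd1 from 8.94, 9.45 and 9.25 to 8.63, 8.33 and 8.60 (-0.69 ± 0.16, adjusted p = 0.023). Both rested on few arrays. Shmt2 was lost without any array but pretreated replicate 2 (0.66 to 0.97), with quantile normalization (0.87) and with the mean of its probe sets (0.55). Mthfd1 was lost without OVA replicate 2 or 3 or pretreated replicate 3 (-0.57, -0.68 and -0.73), and then 2 calls were left.

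Shmt1, at 7.03, 7.72 and 7.63, lay below its OVA arrays (-0.81 ± 0.31, adjusted p = 0.129) and passed only with the mean of its 4 probe sets. Psat1, Phgdh and Mthfd1l differed by 0.10 to 0.18 with overlapping arrays, and Psph by 0.45 ± 0.17 (adjusted p = 0.134). Dividing-cell markers fell in 6 of 10 cases, with means of 7.58, 9.53 and 8.55 against 9.97 to 10.33, and their part was not tested.

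Among other pathway genes, Cth rose on pretreated macrophages at both times, by 2.44 ± 0.28 at 48 h (adjusted p = 7.86e-06) and 2.97 ± 0.27 at 72 h (adjusted p = 0.000175). Ahcy, which breaks down S-adenosylhomocysteine, fell by 1.17 ± 0.21 and 0.87 ± 0.10. The glycine transporter Slc6a9 rose by 2.07 ± 0.22 at 72 h, 1 of 3 of 8 glycine and serine genes that rose there, while 2 of 12 rose and 1 fell at 48 h. Of the folate cycle genes 2 of 11 fell at 48 h, Tyms (-1.12 ± 0.26) and the folate carrier Slc19a1 (-0.50 ± 0.15), and none of 10 was called at 72 h (limma). Gart and Atic fell by 1.20 ± 0.20 and 0.90 ± 0.11 at 48 h.

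Pretreated macrophages in full medium were also set against low arginine at 48 h, with antigen in both. Here too the submitter ID numbers of the groups lie in different consecutive blocks, and block and condition cannot be told apart. No enzyme was higher and 2 of 9 were lower, where 3.37% of genes were called (1.52% higher and 1.85% lower). Shmt2 differed by -0.84 ± 0.20 (adjusted p = 0.0174) and Mthfd1 differed by -0.56 ± 0.15 (adjusted p = 0.0406). Without pretreated replicate 1, the array with the low Shmt2 value, or without low-arginine replicate 3, 0 calls were left, and leaving out any other array left 1. The Shmt2 difference without pretreated replicate 1 was -0.51. Aldh1l2 and Mthfd2 differed by 0.00 ± 0.18 and -0.13 ± 0.14 between these groups. In the same comparison 9 of 10 dividing-cell markers were lower (median -1.84) and 4 of 6 markers of alternatively activated macrophages higher (median 2.29), and their part was not tested.

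**Figure D4:**
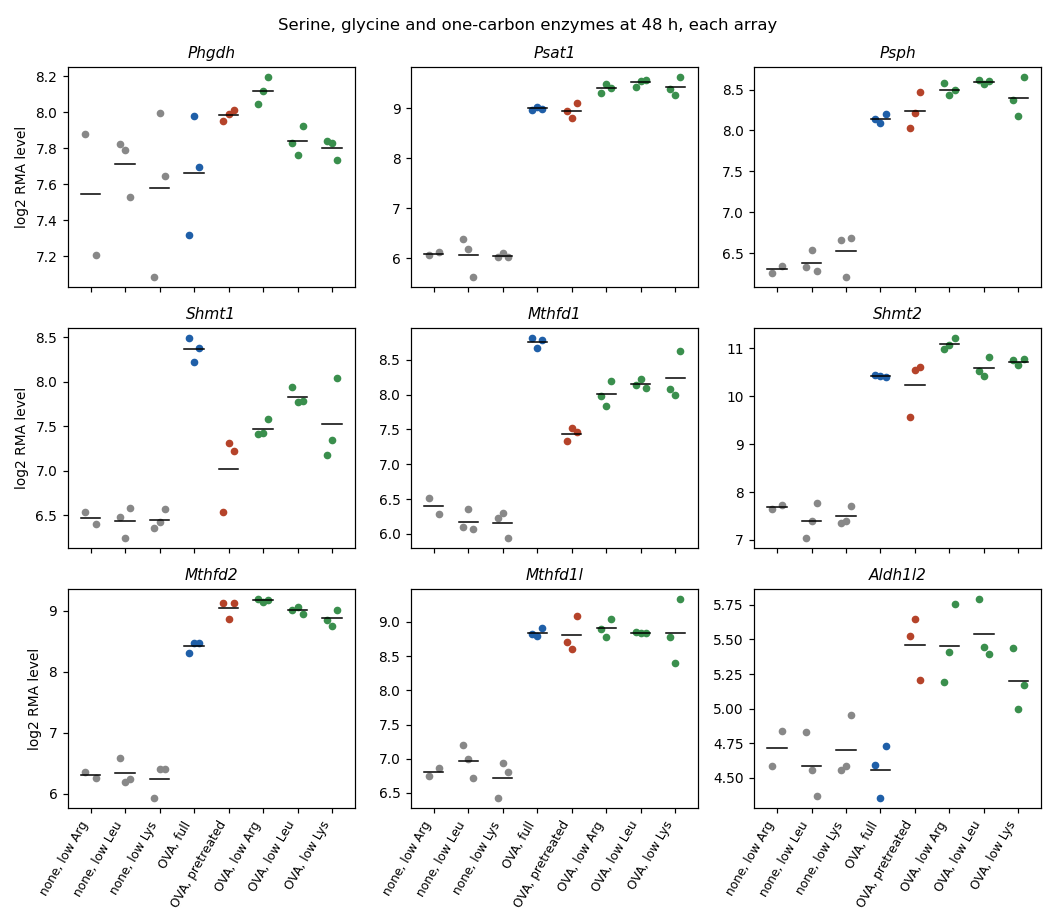
Levels of the 9 enzymes measured at 48 h, each point 1 array and each line a group mean, as log2 RMA level with an axis of its own for each enzyme. The 8 arrays without OVA lie below all those with OVA for Psat1, Psph, Shmt2, Mthfd1, Mthfd2 and Mthfd1l, whereas the groups overlap for Phgdh.

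The gap between mitochondrial and cytosolic counterparts was also followed within each array, as the difference of their levels relative to its mean with OVA in full medium. These pairs were chosen after their values were seen, so no test is given. Shmt2 minus Shmt1 was -0.10 to 0.14 in full medium, 1.57 ± 0.03 (SD, n = 3) in low arginine, 0.71 ± 0.24 in low leucine, 1.15 ± 0.44 in low lysine and 1.17 ± 0.19 on pretreated macrophages. Mthfd2 minus Mthfd1 was -0.17 to 0.14 in full medium and then 1.51 ± 0.18, 1.19 ± 0.02, 0.98 ± 0.22 and 1.94 ± 0.23 in the same order. Mthfd1l minus Mthfd1 was 0.82 ± 0.05, 0.60 ± 0.07, 0.52 ± 0.17 and 1.27 ± 0.27.

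Every restricted or pretreated array thus lay above every full-medium array for each pair at 48 h. All of these differences are set against the same 3 full-medium arrays, and the share of all gene pairs that separate in this way was not computed. At 72 h on pretreated macrophages Shmt2 minus Shmt1 was 1.65 ± 0.69 and Mthfd1l minus Mthfd1 was 0.87 ± 0.36, again above the 3 arrays with OVA alone. Without antigen the pairs did not move as a set. Shmt2 minus Shmt1 was -1.48 to -0.72 over the 8 arrays without OVA at 48 h, below full medium with OVA, while Mthfd2 minus Mthfd1 was 0.04 to 0.84 and Mthfd1l minus Mthfd1 was 0.11 to 1.02. The last range overlaps those of all the restricted and pretreated cultures with OVA. The Mthfd2 minus Mthfd1 range overlaps that of low lysine with OVA (0.73 to 1.12). At 72 h without OVA, Shmt2 minus Shmt1 was -0.60 ± 0.62 and Mthfd1l minus Mthfd1 was -1.07 ± 0.21. Taken alone, a difference within an array shows unequal change of the pair and not which of them changed. Mthfd1 enters both the Mthfd2 and the Mthfd1l pair. Against OVA alone in full medium at 48 h, Mthfd1l differed by -0.04 to 0.06 and Mthfd1 by -1.32 to -0.52.

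**Figure D5:**
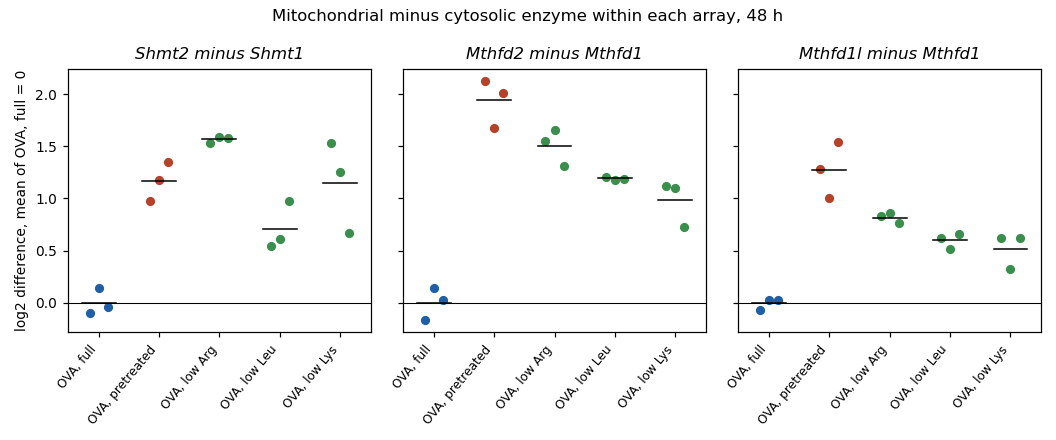
Difference between the levels of a mitochondrial enzyme and its cytosolic counterpart within each array, on the log2 scale and relative to the mean with OVA in full medium, each point 1 array. All restricted and pretreated arrays with OVA lie above the full-medium arrays for the 3 pairs at 48 h.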

How the data were processed

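Levels came from 23 MoGene-2_0-st arrays (48 h) and 9 HT_MG-430_PM arrays (72 h). The authors deposited 1 log2 value per probe set from RMA (Affymetrix Expression Console 1.1), per the submitters' processing notes; which arrays were normalized together is not given in the sources used here. Of 41345 and 45037 probe sets, 23521 and 28898 named 1 gene in the platform annotation, 1814 and 551 several and 16010 and 15588 none. A gene was represented by its probe set with the highest mean among those that name 1 gene. Platforms were never fitted together.

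The tests used limma 3.58.1 under R 4.3.3 (lmFit, eBayes with an intensity trend) on all groups of a platform, in 13 pairwise comparisons and 2 F tests, and p-values were adjusted within each. The number of arrays limits the precision. The steps were tested on simulated data. The enzymes and gene lists were chosen with earlier results of these data known. Other pathway genes were named only where called, up to 4 per list and comparison with the largest difference, besides the reference genes Atf4, Myc, Asns and Trib3. Alternatives were the normalization, centring, prior, dim-gene filter, probe set rule, replicate block, block of consecutive submitter IDs, groups in the fit and each array left out.

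Titles number the replicates. Over 5000 genes, deviations of same-numbered arrays from their group means were correlated. The correlation was above 0.1 in every pair for pretreated macrophages (72 h, 0.16 to 0.261) and for low leucine against low arginine (0.294 to 0.39). The numbers were therefore treated as possible pairing there. No correlation was computed between differently numbered arrays, so the 0.1 cut-off has nothing to be judged against. At 72 h not all same-numbered arrays of the OVA and pretreated groups lay in the same block of consecutive submitter IDs. The SEs and p-values given above for both comparisons come from fits without a replicate block. Tables used pandas 2.3.3 and figures matplotlib 3.10.9, under Python 3.11.15.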

Additional observations from a re-analysis of the deposited data

How the results depend on the processing

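Of 55 called enzyme differences, 42 passed under every alternative run. Over 754 recomputed values of the 55, 685 stayed past the threshold, 69 did not and none changed sign. With only the compared groups in the fit, the called enzymes were 7 in place of 4 in low arginine, 6 in place of 3 in low leucine, 0 in place of 4 in low lysine, 1 in place of 0 between low arginine and low leucine, and 0 in place of 2 for pretreated macrophages against low arginine. The last comparison also gave 1 with quantile normalization and 1 with centred arrays. Smaller moves in a count hid changes of genes: with quantile normalization low lysine lost Shmt1, Mthfd1 and Aldh1l2 and gained Psat1 and Psph, low arginine gained Shmt2 and low leucine gained Psat1, and pretreated macrophages at 72 h lost Shmt2. The same comparison lost Mthfd1 with only the compared groups in the fit. Leaving out 1 array gave 2 to 4 called enzymes for pretreated macrophages at 72 h, 1 to 2 in low leucine, 0 to 3 in low lysine and 0 to 1 for pretreated macrophages against low arginine. The cause was not tested. In the 2 comparisons where replicate numbers were treated as possible pairing, the replicate block left the counts at 4 and 0. That block is 1 factor over all groups of the platform, so it is not a paired fit of the compared groups. Elsewhere the numbers are only names; the block gave 5 calls in low arginine, with Shmt2 added, and 8 for antigen in low arginine, with Phgdh lost, and the same counts in every other comparison. A difference of 0.46 passed for Mthfd2 in low lysine while 0.52 did not for Psat1 in low leucine, and Aldh1l2 at 48 h lay near the middle of the array signal or below it.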

Other observations

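Genes whose levels were most like those of an enzyme over the 23 arrays at 48 h were sought among genes above the median level. These values are descriptions with no p, because arrays with and without antigen stand apart and share the correlation. Mthfd2 was most like Slc7a5, a large neutral amino acid transporter (Pearson r = 0.995), and Psat1 most like Irf4, a transcription factor of activated T cells (r = 0.995). Psph was most like Lag3 (r = 0.988), Mthfd1 like Atic (r = 0.985), and Shmt2 like Ptpn7 (r = 0.984). Aldh1l2 was most like Atf3, a transcription factor of the stress response (r = 0.908), and Phgdh was like no gene to that degree, with Tmem65 first at r = 0.714.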
